A study of Mus musculus with 34 samples.

Results

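Accessible positions were collected around 8 genes of the heart muscle contractile and calcium machinery, Myh6, Myh7, Tnnt2, Tnni3, Actc1, Actn2, Ttn and Ryr2, out of 21627 protein-coding genes of the mm10 mouse genome. The series used ATAC-seq, a method that marks open chromatin by where a transposase inserts adapters, and its deposited lists give the summit of each peak, the base where the signal is highest. A summit was assigned to a gene when it lay inside the gene or within 50 kb of it, and summits within 250 bp of each other were joined into 1 position across lists. The 8 genes held 114 positions of 156849 in all. Each position is described by the lists that contain it, so "gained" and "lost" mean presence in one list and absence from the other, and are not tested changes.

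The 34 samples form 17 groups of 2. The choice of the 8 genes did not use their values, but earlier results of these data were known when it was made. Mouse embryonic fibroblasts (MEF, labelled iHA-Etv2) were profiled uninduced at day 0, with doxycycline at days 1, 2 and 7, and at day 7 after a sort for Flk1. Doxycycline induces Etv2, an ETS-family factor of the blood and vessel lineages. Flk1 is the surface receptor encoded by Kdr. Brg1-knockdown MEF were profiled at day 0, and with or without doxycycline at days 1, 2 and 7. The means of knockdown is not given in the sources used here. Embryoid bodies (EB), in which embryonic stem cells differentiate as clumps in culture, were profiled at 12 h without doxycycline, with it, and with it after the Flk1 sort. The 12 h is the labelled time of these groups and is not given as the age of the EB. Their titles also carry D25, whose meaning was not worked out here, so 12 h and day 4 are not read on 1 scale. Brg1-floxed EB at day 4 were profiled with or without 4-hydroxytamoxifen (4OHT), and all 4 of these samples are labelled as given doxycycline. Brg1 is the ATPase of the SWI/SNF chromatin remodelling complex. Summits hold no measure of Brg1 itself, so the knockdown and the deletion were not checked, and the Cre of the floxed line is not given in the sources used here.

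Of the 19 lists, 15 stand for 1 group each with its 2 replicates combined, so comparisons among them have no replicate error and no p-value. For floxed EB alone, each of the 4 samples has its own list. The lists held 11188 to 62028 summits in the 12 fibroblast groups, 58004 to 85498 in the EB groups at 12 h and 17946 to 31436 in the floxed EB samples. The starts of 4 or 5 of 5 pluripotency genes were in each EB list, and none was in any fibroblast list. In fibroblast lists the starts of 1 to 3 of the 3 fibroblast genes with a mapped start were present, but the 12 h EB lists held all 3 as well. The 2 knockdown lists of day 7 were the shortest, and only 16.2% and 18% of gene starts were in them.

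The contractile unit of heart muscle, the sarcomere, slides thick filaments of myosin along thin filaments of actin. Myh6 and Myh7 encode the alpha and beta myosin heavy chains, and Actc1 encodes cardiac actin. Tnnt2 and Tnni3 encode cardiac troponin T and the inhibitory cardiac troponin I, which make the thin filament respond to calcium. Actn2 encodes alpha-actinin of the Z-disc, where thin filaments are anchored, and Ttn encodes titin, the elastic protein that spans from Z-disc to M-line. Ryr2 encodes the ryanodine receptor through which calcium leaves the sarcoplasmic reticulum at each beat. In mm10, Myh6 lies at chr14:54941921-54968017 and Myh7 at chr14:54970684-54994626, and both Actc1 at chr2:114047282-114052875 and Ttn at chr2:76703980-76982557 are on chromosome 2. Actn2 lies at chr13:12269426-12340732, Ryr2 at chr13:11553099-12106945, Tnnt2 at chr1:135836315-135852268 and Tnni3 at chr7:4518305-4522718. All are on the minus strand except Tnnt2. Etv2 acts early in mesoderm, where vessel and blood progenitors and heart progenitors arise from Flk1-expressing cells.

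The sequences around 4 gene starts are shown because accessibility at the start divided these genes. Each is the RefSeq window of GRCm38.p6 from 250 bases before to 50 bases after the start, 5′ to 3′ on the gene's strand, with every CpG dinucleotide in capitals. All 8 genes matched the table of windows. The Actn2 window is chr13:12340683-12340982, the Ryr2 window chr13:12106896-12107195, the Actc1 window chr2:114052826-114053125 and the Myh6 window chr14:54966558-54966857, all on the minus strand.
Actn2: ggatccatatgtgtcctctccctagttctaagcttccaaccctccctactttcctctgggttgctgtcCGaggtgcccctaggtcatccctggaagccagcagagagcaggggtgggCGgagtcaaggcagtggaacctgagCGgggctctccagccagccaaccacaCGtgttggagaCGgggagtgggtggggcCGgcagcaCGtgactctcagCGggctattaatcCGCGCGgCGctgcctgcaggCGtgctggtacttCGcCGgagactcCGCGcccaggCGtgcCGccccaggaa
Ryr2: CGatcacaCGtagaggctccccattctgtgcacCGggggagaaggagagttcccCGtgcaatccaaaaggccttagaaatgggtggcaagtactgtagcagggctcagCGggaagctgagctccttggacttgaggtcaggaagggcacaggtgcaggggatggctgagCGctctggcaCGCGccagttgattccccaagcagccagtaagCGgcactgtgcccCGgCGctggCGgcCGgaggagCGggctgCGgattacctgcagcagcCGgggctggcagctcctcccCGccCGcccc
Actc1: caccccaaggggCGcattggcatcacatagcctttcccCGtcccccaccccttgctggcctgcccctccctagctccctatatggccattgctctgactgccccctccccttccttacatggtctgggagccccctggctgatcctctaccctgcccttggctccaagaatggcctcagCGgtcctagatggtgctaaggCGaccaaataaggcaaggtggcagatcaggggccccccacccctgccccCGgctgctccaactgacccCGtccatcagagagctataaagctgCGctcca
Myh6: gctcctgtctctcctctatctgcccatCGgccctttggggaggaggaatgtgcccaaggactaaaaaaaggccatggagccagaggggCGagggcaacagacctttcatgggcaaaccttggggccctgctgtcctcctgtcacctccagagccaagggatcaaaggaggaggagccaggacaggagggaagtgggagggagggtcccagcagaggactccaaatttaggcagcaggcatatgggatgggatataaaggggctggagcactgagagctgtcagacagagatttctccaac

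The Actn2 window holds 19 CpG and the Ryr2 window 18, above the median of 13 over all 21044 windows in the table. The other 6 genes lie below that median. Ttn has 8 CpG, Actc1 has 7, Tnni3 has 5, and Myh6 has 2. Tnnt2 and Myh7 each have a pair of annotated starts, with 5 and 1 CpG at Tnnt2 and 5 and 2 at Myh7. A TATAAA motif was found on either strand in the Actc1 and Myh6 windows and in 12.7% of all windows. The CArG box, the motif of serum response factor, was found in the Actc1 window alone among the 8 genes and in 1.54% of all windows. CATTCC, a core motif of TEAD factors, was in a window of Myh6, Myh7, Tnnt2 and Ttn and in 13.5% of all windows. GGAA, the ETS core, was in every window of the 8 genes and in 95.7% of all windows. CANNTG, the E-box, was likewise in all 10 windows of the 8 genes and in 69% of all windows. No overlaps between motifs were removed, and a match describes letters only.

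Accessibility at the gene start itself was seen for Actn2 and Ryr2 and for none of the other 6 genes. A position lay within 1 kb of the Actn2 and Ryr2 starts in all 7 EB lists and in 0 of 12 fibroblast lists. That pattern was shared by 446 of 17273 genes with a mapped start, or 2.58%. The starts of Myh6, Myh7, Actc1, Ttn, Tnnt2 and Tnni3 were in none of the 19 lists, as was the case for 28.8% of all genes. No start of the 8 genes was in all 19 lists, against 11.5% of all genes. In bulk data, fewer cells with an open site and weaker opening in each cell cannot be told apart.

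The Actn2 start position spans chr13:12340740-12340838, and its summit nearest to the start lies 8 bp upstream of it. Its deposited score, the −log10 of the q value, was 99.4 in uninduced EB, 75.5 in induced EB and 26.2 in induced Flk1-positive EB. These scores sit at the 94.0th, 89.9th and 79.3rd percentile of their own lists. A score depends on the depth of its list, so only its percentile is read here. In the floxed EB samples without 4OHT the Actn2 start stood at the 83.9th and 91.4th percentile. With 4OHT it stood at the 35.2nd and 56.2nd percentile. These lists differ in length, and the Mtr start in the same window stood at 90.9 and 89.7 without 4OHT and at 74.9 and 78.3 with it, so no difference is read from these ranks. A further Actn2 position inside the gene, at chr13:12340339-12340392, was in the 3 EB lists of 12 h and in no other list.

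The Ryr2 start position spans chr13:12106569-12107041. It stood at the 92.9th percentile in uninduced EB, the 93.1st in induced EB and the 93.9th in induced Flk1-positive EB. The floxed EB samples had it at the 66.3rd and 67.0th percentile without 4OHT and at the 48.5th and 63.1st with 4OHT. Its deposited scores overlapped between these groups, with 11.9 and 18.4 with 4OHT on either side of those without it. Ryr2 and Actn2 are neighbours on chromosome 13, with starts 234 kb apart and Mtr, the gene of methionine synthase, in between. The Mtr start was in 18 of 19 lists, so the start pattern of Ryr2 and Actn2 did not extend to the gene between them.

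When every list was reduced to its 11188 highest-scoring summits, the length of the shortest, the Ryr2 start remained in 7 of 7 EB lists and the Actn2 start in 5 of 7. Both were still in 0 of 12 fibroblast lists. This alternative was chosen after seeing the data.

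**Figure D1:**
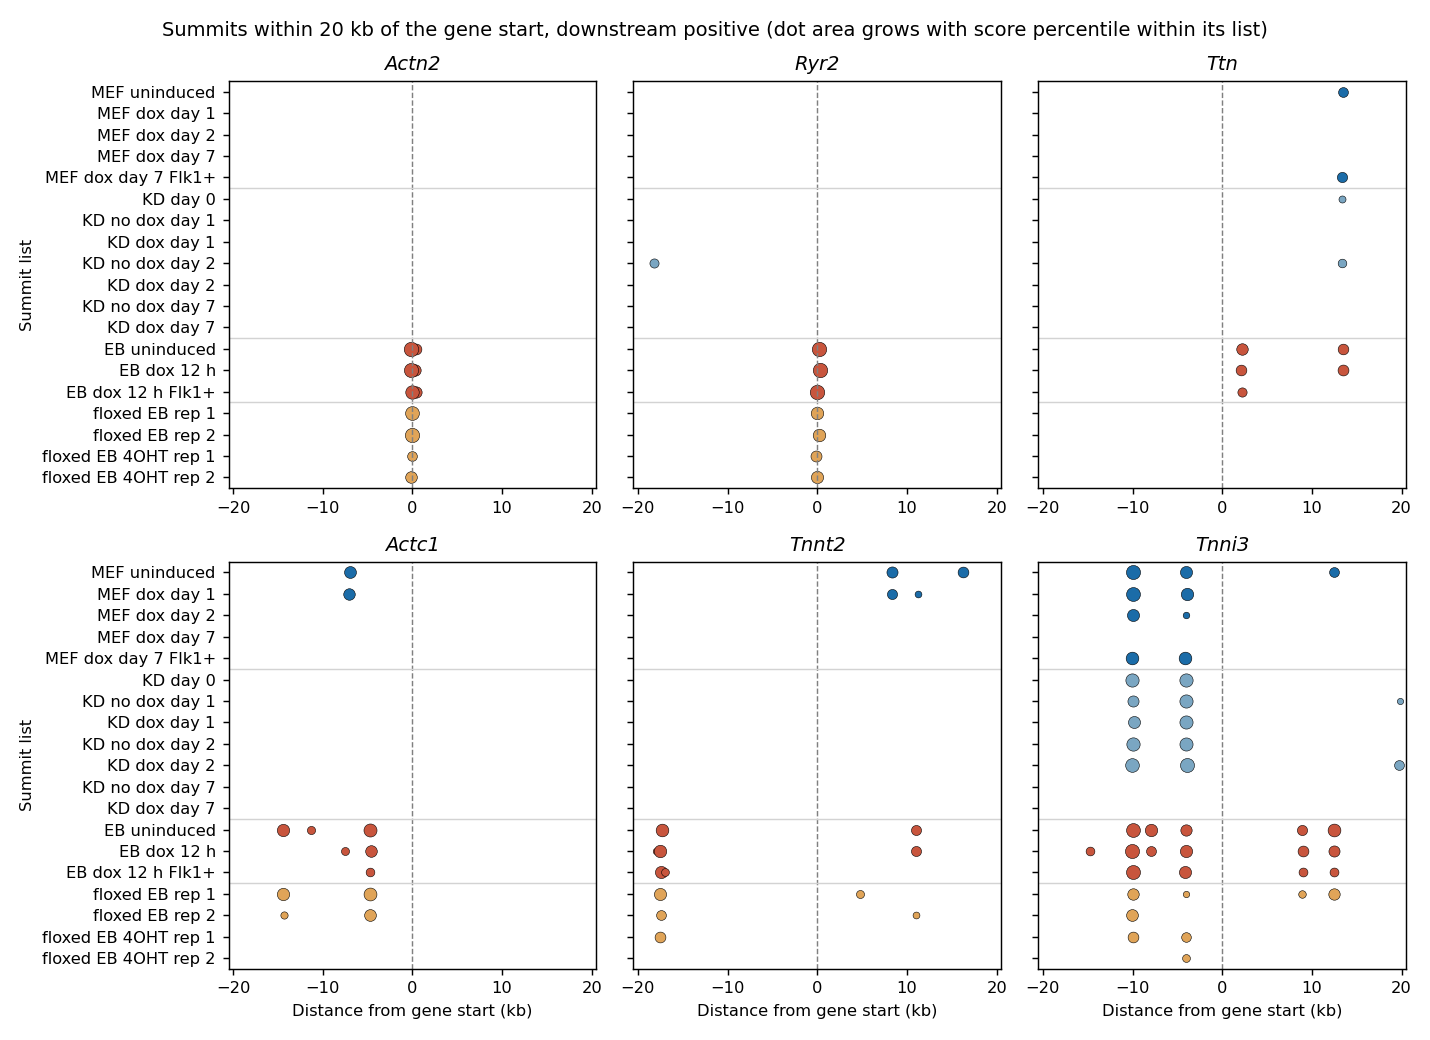
Summits within 20 kb of the starts of 6 of the genes, by signed distance from the start in kb (x axis) and by list (y axis). For Tnnt2 the upstream annotated start is used. Dots are summits, coloured by group of lists, and their area grows with the score percentile within the list. Actn2 and Ryr2 have dots at distance 0 in all 7 EB lists and in none of the 12 fibroblast lists.

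Positions nearest to the other starts lay further off. The closest to Ttn was 2113 bp inside the gene, at chr2:76980313-76980434, in the 3 EB lists of 12 h only. The closest to Actc1 was 4565 bp upstream, at chr2:114057440-114057636, in the 3 EB lists of 12 h and in both floxed samples without 4OHT. The closest to Tnnt2, 4144 bp downstream of the nearer of its annotated starts, was in 1 floxed sample without 4OHT. For Tnni3 the closest position lay 3964 bp upstream but inside Dnaaf3, a gene of ciliary dynein assembly, and was in 15 of 19 lists. The nearest to Myh6 lay 9664 bp inside that gene in 2 EB lists. The nearest to Myh7 lay 8016 bp upstream, in the induced EB list.

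Over all genes, a start window with more CpG was more often in the lists. Of 4614 genes with 0 to 4 CpG, 1.84% had the start in all 7 EB lists. The share was 17.5% of 2259 genes with 5 to 9 CpG, 66.6% of 3599 genes with 10 to 19, and 89.4% of 6801 genes with 20 or more. Actn2 and Ryr2 are in the class of 10 to 19 CpG, where 78.8% of genes had the start in a fibroblast list and 3.58% had it in all EB lists and no fibroblast list. Myh7, Actc1, Ttn, Tnnt2 and Tnni3 are in the class of 5 to 9, where 42.8% of genes had the start in no list. Myh6 is in the lowest class, where that share was 82.3%. The 6 genes without a start position therefore lie in the classes where an absent start was common, whereas a start seen in EB lists alone was uncommon in every class.

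**Figure D2:**
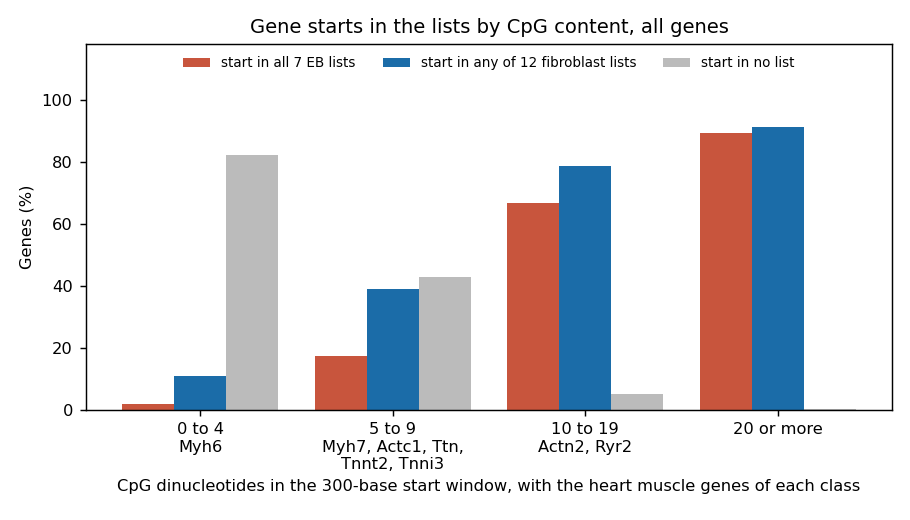
Percent of genes (y axis) by the number of CpG in the 300-base window at the start (x axis), with the heart muscle genes of each class named. Bars give the share of genes with the start in all 7 EB lists, in any of 12 fibroblast lists, or in no list, and Actn2 and Ryr2 fall in the class where 66.6% of genes have the start in all 7 EB lists.

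Of the 114 positions, 56 (49.1%, exact binomial 95% interval 39.6 to 58.7%) were in EB lists only, 35 (30.7%) in fibroblast lists only and 23 (20.2%) in both. Over all positions the shares were 43.5%, 36.2% and 20.3%, and over positions within 50 kb of a protein-coding gene 40.8%, 36.1% and 23.2%. Without the positions at the start of another gene, 51 of 95 positions of the 8 genes (53.7%, 43.2 to 64.0%) were in EB lists only. Starts were not removed from the shares over all positions, so this filtered share has no matching background and is not compared with them. The intervals cover counting error only and treat positions as independent. Only 3 positions were at a start of the 8 genes and 35 lay elsewhere inside them. A further 29 lay inside a neighbouring gene, 19 at a neighbour's start and 28 between genes.

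The positions found in the most lists lay at or inside neighbouring genes. Of 9 positions in 14 or more lists, 7 were at the start of another gene, and the other 2 lay inside Eps8l1 and Dnaaf3. The starts of Pabpn1 and Ngdn, which flank the myosin pair on chromosome 14, were in all 19 lists. Fkbp7 and Plekha3 beside Ttn, Mtr beside Actn2, and Ppp1r12c and Dnaaf3 beside Tnni3 supplied the others. Conversely, 44 positions were in 1 list each. Neither count was set beside the share over all positions, so both describe these windows only.

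The genes differed in how their positions divided. Actc1 had 10 positions in EB lists only, 3 in fibroblast lists only and 0 in both. Tnnt2 had 11, 4 and 1 in the same order, and Ryr2 had 14, 10 and 2. Tnni3, in a dense gene neighbourhood with 7 neighbours, had 6, 4 and 9. Ryr2 has no protein-coding neighbour within 50 kb, and 22 of its 26 positions lay inside its 554 kb, as the longest gene of the 8. Tnni3 and Actc1 had 0 positions inside the gene.

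Counts of positions per list were highest in the EB lists of 12 h. All 8 genes together had 60 positions in uninduced EB, 54 in induced EB and 36 in induced Flk1-positive EB. Uninduced MEF had 34, and induced MEF had 22, 11 and 6 at days 1, 2 and 7, with 17 in Flk1-positive MEF. Knockdown MEF lists ranged from 3 to 23 with a median of 20, and the floxed EB samples from 14 to 28. The longest list, that of uninduced EB, also had the most positions, but the order did not hold throughout. Uninduced MEF had 34 positions in 62028 summits, and Flk1-positive EB had 36 in 58004. Per 10000 summits of the list, EB lists held 6.21 to 7.02, MEF lists 3.26 to 5.76, knockdown lists 2.68 to 6.09 and floxed EB samples 6.92 to 10.1. The EB range therefore lay above both fibroblast ranges on this scale, though only from 6.21 against a knockdown maximum of 6.09. It overlapped that of the floxed samples. The scale sets joined positions against single summits, and the lists differ in how many summits joined. Flk1-positive MEF had 24235 positions from 29520 summits, and Flk1-positive EB had 49968 from 58004. So small a margin is not read as a difference. In the floxed lists 0% of summits shared a peak with another summit, against 28.7% to 47.1% in the other lists, so this scale is not alike for them. Knockdown lists, floxed lists and the remaining lists come from 3 separate processing runs by their peak names. A difference between runs cannot be told apart from processing.

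**Figure D3:**
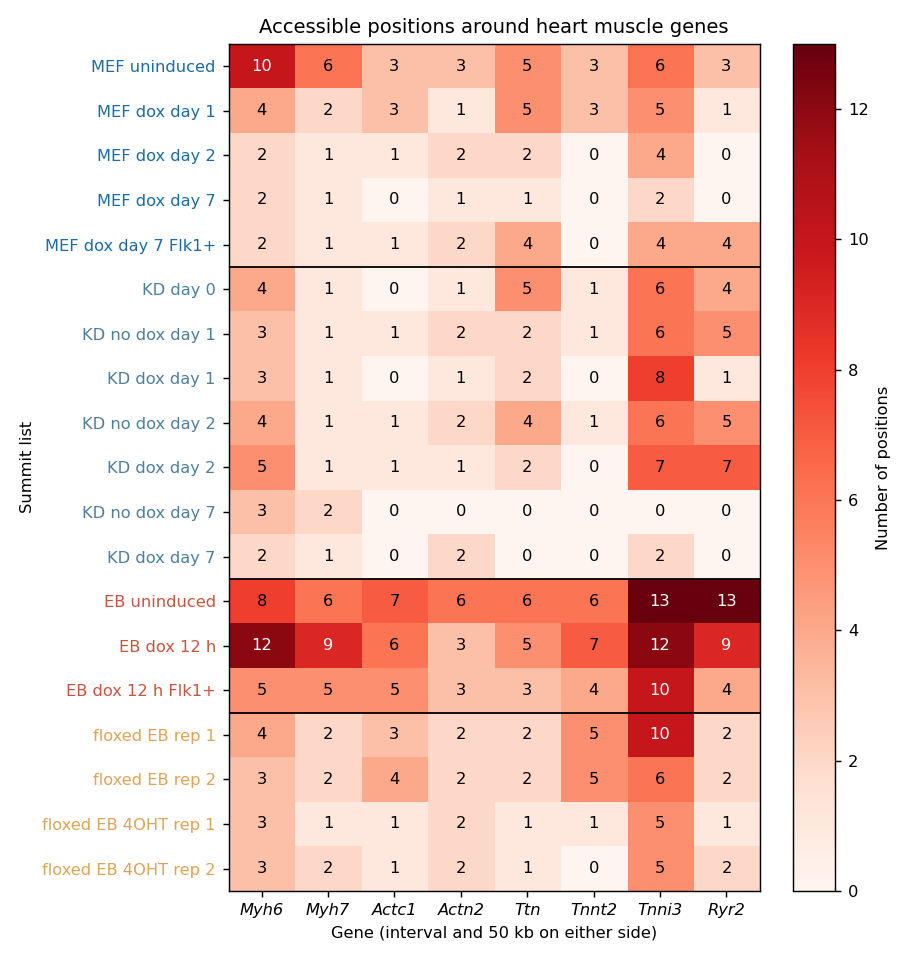
Number of accessible positions inside or within 50 kb of each of the 8 genes (columns) in each of the 19 lists (rows, grouped by lines), with a colour scale from 0 to 13. The EB lists of 12 h are the darkest block, with 36 to 60 positions over the 8 genes, and the day 7 knockdown lists the palest, with 3 and 6.

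In EB at 12 h, Etv2 induction was compared with no doxycycline. Of the 60 positions of uninduced EB, 17 were lost and 43 kept, and 11 new ones appeared. The kept share was 71.7%, against 70.2% over all positions. Myh6, Myh7 and Tnnt2 had more positions gained than lost, whereas Actc1, Actn2, Ttn, Tnni3 and Ryr2 had more lost. Over all genes 26.5% had more gained and 43.6% more lost. The kept share was thus near the background. At equal list length 17 were lost and 16 gained.

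Ryr2 went from 13 positions in uninduced EB to 9 in induced EB and 4 in induced Flk1-positive EB. Among the 6 lost on induction was chr13:11781273-11781520, 325.4 kb inside the gene, at the 76.3rd percentile of the uninduced list. That position was otherwise in 4 knockdown MEF lists. Actn2 went from 6 positions to 3, keeping those at its start and at that of Mtr. Its position near the far end of the gene, 67.6 kb from the start, was in uninduced EB only, at the 50th percentile.

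Myh6 had 4 positions gained and 0 lost, from 8 to 12, and Myh7 had 4 gained and 1 lost, from 6 to 9. The 4 gained are the same for both genes, since the starts of these tandem genes are 28 kb apart and their windows share 12 positions. Of the 4, 1 lies in Myh6, 1 in Myh7, 1 in Efs and 1 between genes, and all were in the induced EB list alone. Their scores stood at the 21.4th, 3.95th, 3.95th and 14.2nd percentile of that list. The additions were thus among its weaker summits, and none was in Flk1-positive EB.

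In Flk1-positive EB, few positions inside the 8 genes remained. Against uninduced EB, 29 of 60 positions were lost and 5 gained, a kept share of 51.7% against 54.4% over all positions. All 8 genes had more lost than gained, as did 70.7% of all genes, while 9.07% had more gained. Away from starts, 14 of 17 positions inside the 8 genes were lost and 0 gained. For positions inside any protein-coding gene, 49.1% were lost.

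Against unsorted induced EB, Flk1-positive EB lost 23 of 54 positions and gained 5, and 57.4% were kept against 65.7% over all positions. Of the 8 genes, 7 had more lost than gained, and Actn2 kept its 3, against 64.5% of all genes with more lost and 8.29% with more gained. Inside the 8 genes, 11 of 14 positions were lost, 5 of them in Ryr2, 2 each in Myh6 and Ttn and 1 each in Myh7 and Tnnt2. The share inside any gene was 38.5%. The 3 kept were the Ttn position 2113 bp from its start and a pair in Ryr2, at chr13:11682582-11682673 and chr13:11563517-11563982. The 11 lost stood at a median percentile of 21.4 in the induced list, and the 3 kept at 48.9. Inside any gene the medians were 21.4 and 60.6, so weaker summits were the ones lost there too.

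Both Flk1 comparisons change with list length. With each pair of lists reduced to 58004 summits, 17 positions of the windows were lost and 8 gained against uninduced EB, and 10 lost and 8 gained against unsorted EB. Inside the 8 genes, 8 of 11 positions were lost against uninduced EB, beside 33.2% over all genes. Against unsorted induced EB, 3 of 6 were lost, beside 24.5%. No position inside the genes was gained in either case. In the lists as deposited, Ryr2 supplies 10 of the 17 and 7 of the 14 positions, and with 1 list per group no test was possible. Both comparisons rest on the same Flk1-positive list, and the uninduced EB list is also the control of the unsorted induced EB.

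**Figure D4:**
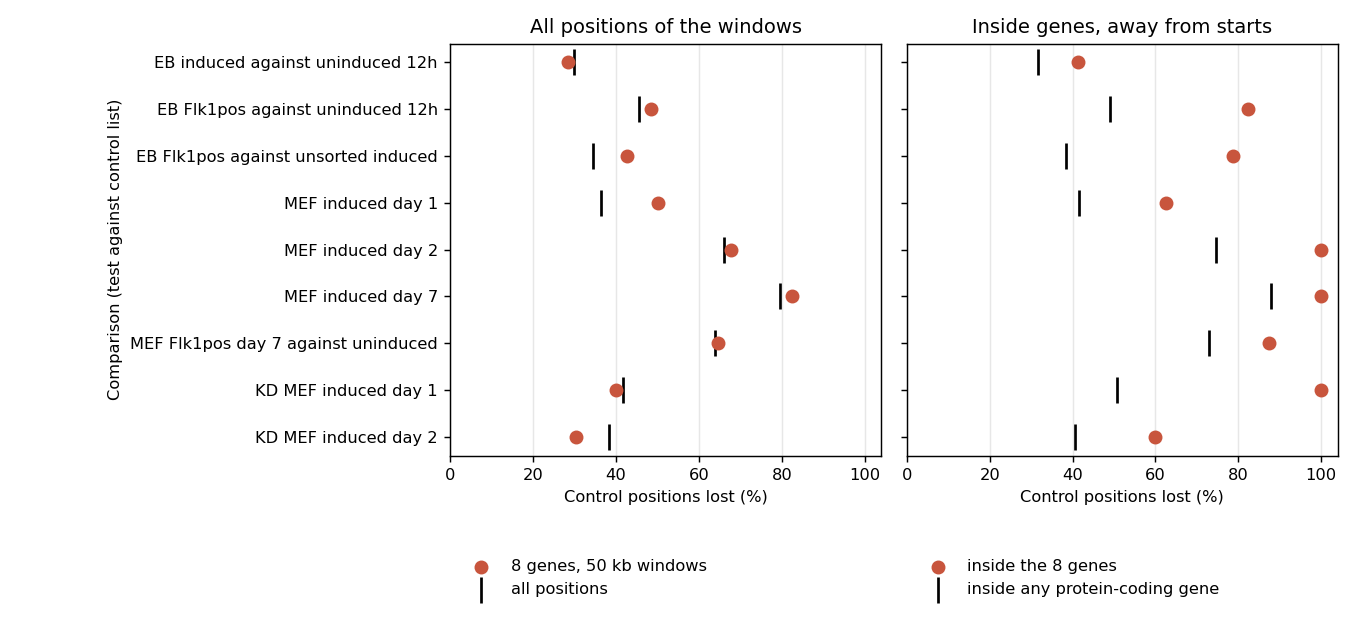
Percent of control-list positions lost (x axis) in 9 comparisons (y axis), for all positions of the 50 kb windows (left) and for positions inside genes away from starts (right). Dots are the 8 genes and vertical marks all positions or genes. On the right, Flk1-positive EB stand at 82.4% against a mark of 49.1% and, relative to unsorted EB, at 78.6% against 38.5%.

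Some positions near the thin-filament genes stayed through the sort, and those named here are examples. Against unsorted induced EB, Actc1 kept 83.3% of its positions, Tnni3 66.7% and Tnnt2 42.9%, beside 65.7% over all positions. The Actc1 position 4565 bp upstream stood at the 73.6th percentile in uninduced EB, the 55.7th in induced EB and the 25.4th in Flk1-positive EB. A position 20.4 kb from the Actc1 start, at chr2:114032475-114032494, was in the induced and the Flk1-positive EB lists and in no other. At the start of Gjd2, a connexin gene next to Actc1, the position chr2:114013631-114013696 was in 6 of 7 EB lists and in 0 fibroblast lists. Near Tnni3, 2 positions inside Tnnt1, the slow skeletal troponin T gene, were in all 3 EB lists of 12 h. The one 12.4 kb from the Tnni3 start was also in uninduced MEF and in a floxed sample without 4OHT. The one 8.9 kb from it was also in that floxed sample.

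In MEF, all induced lists share 1 uninduced control. On day 1, 17 of 34 positions were lost and 5 gained, and 50% were kept against 63.6% over all positions. Of the 8 genes, 5 had more lost than gained and 0 more gained, against 62.3% and 12.5% of all genes. On day 2, 23 were lost and 0 gained, and all 8 genes had more lost, as did 88.3% of all genes. On day 7, 28 were lost and 0 gained, again with all 8 genes, against 91.5%. More gained than lost was seen in 2.82% of all genes on day 2 and in 2.9% on day 7. No position of the 8 genes was therefore new at days 2 or 7 in unsorted MEF, out of 11 and 6. Over all positions, 2708 of 21117 were new on day 2 and 2963 of 14132 on day 7. With so few positions around the 8 genes, their 0 is not read as a difference. The kept share on day 2 was 32.4%, against 33.9% over all positions. On day 7, 6 of 34 were kept, against 11169 of 54366 over all positions. The kept shares of both days were thus near the background.

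Inside the genes away from starts, 5 of the 8 positions of uninduced MEF were lost on day 1, and 8 of 8 on days 2 and 7. Over all genes, 41.5%, 74.7% and 88% of such positions were lost at those times. Tnnt2 had 3 positions in uninduced MEF and on day 1, and 0 in every later MEF list. Actc1 had 3, 3, 1 and 0 at days 0, 1, 2 and 7 and 1 in Flk1-positive MEF. Myh6 had 10 in uninduced MEF, 4 on day 1 and 2 in each later list, and those 2 were the starts of its neighbours Pabpn1 and Ngdn. The uninduced list was 62028 summits long and the day 7 list 18418, and at equal list length 10 positions were lost and 6 gained by day 1. By day 2 the equal-length counts were 5 lost and 1 gained, and by day 7 they were 3 lost and 1 gained.

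Flk1-positive MEF of day 7 had 17 positions, 5 gained and 22 lost against uninduced MEF, with 35.3% kept against 36.1% over all positions. At equal list length the direction turned, with 8 gained and 6 lost. Ryr2 alone had more gained than lost, 4 against 3, as did 3.83% of all genes, and the other 7 had more lost, as did 85.4%. The 4 Ryr2 positions were at the 31.3rd, 21.0th, 5.63rd and 26.3rd percentile of their list. Of these, 3 lie inside Ryr2 and were in no other list. The remaining one, 31.3 kb upstream at chr13:12138214-12138406, was also in 5 knockdown MEF lists. Inside the genes away from starts, 7 of 8 positions were lost and 3 gained, beside 72.9% lost over all genes.

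In knockdown MEF each induced list has its own uninduced list of the day. On day 1, 8 of 20 positions were lost and 3 gained, all 3 around Tnni3, and 60% were kept against 58.3% over all positions. At equal list length the direction turned here too, with 3 gained and 1 lost. Tnni3 alone had more gained and 4 genes more lost, against 9.98% and 56.9% of all genes. On day 2, 7 of 23 were lost and 7 gained, and 69.6% were kept against 61.8%. Myh6, Tnni3 and Ryr2 had more gained, and 3 genes more lost, against 24.1% and 41.2%. Ryr2 had 5 positions without and 7 with doxycycline on day 2, after 5 without and 1 with it on day 1. On day 7, only 4 genes had any position, with 4 gained and 1 lost in all, and 2 genes were on either side, against 36.5% with more gained and 23.5% with more lost. With 3 and 6 positions in those lists, the day 7 counts are too few to compare genes. Inside the genes away from starts, 4 of 4 positions were lost and 0 gained on day 1, beside 50.8% lost over all genes. On day 2, 3 of 5 were lost and 4 gained, beside 40.6% lost over all genes. The 4 lost on day 1 and the 4 gained on day 2 all lie in Ryr2, so these counts rest largely on that gene.

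The floxed EB samples allow a comparison over samples. The 8 genes together had 28 and 24 positions without 4OHT (26 ± 2.83, SD, n = 2) and 14 and 14 with it (14 ± 0). Every sample with 4OHT thus held fewer. Their lists were also shorter, at 17946 and 20229 summits against 31436 and 23823. With all 4 lists reduced to 17946 summits, the counts were 18 and 17 without 4OHT and 14 and 12 with it, a difference of −4.5 in place of −12. Per 10000 summits of the list, the counts were 8.91 and 10.1 without and 7.80 and 6.92 with 4OHT.

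Tnnt2 differed most, with 5 and 5 positions without 4OHT and 1 and 0 with it. Actc1 had 3 and 4 without and 1 and 1 with it. Tnni3 had 10 and 6 against 5 and 5, and Ttn had 2 and 2 against 1 and 1. For these 4 genes the groups did not overlap, lower with 4OHT, as was so for 29.3% of 19469 genes, and 0 of the 8 genes were higher, against 1.42%. The exact permutation test, two-sided, gives p = 0.333333 for each of the 4, which is the smallest that 2 samples against 2 allow. Actn2 had 2 in all 4 samples. Myh6 had 4 and 3 against 3 and 3, and Myh7 and Ryr2 each had 2 and 2 against counts of 1 and 2. For these 4 genes the groups overlapped.

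**Figure D5:**
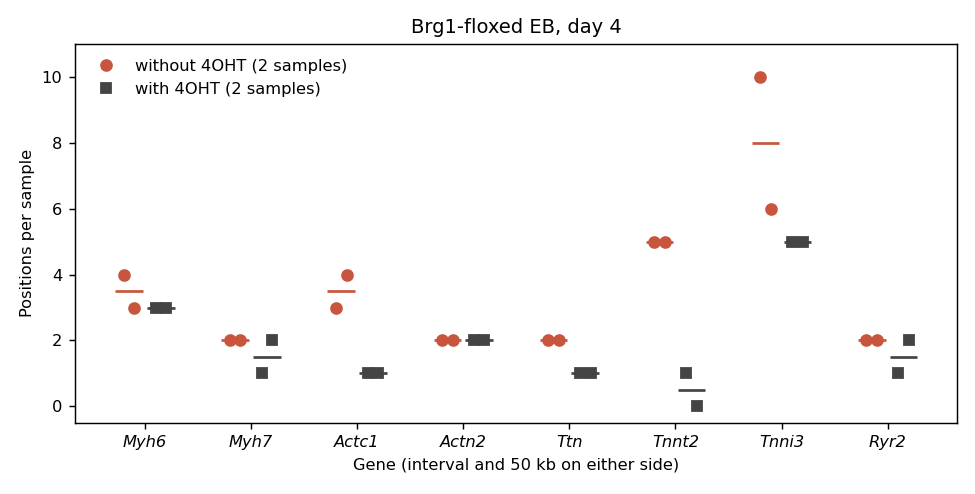
Number of positions inside or within 50 kb of each gene (y axis) in each Brg1-floxed EB sample of day 4, by gene (x axis). Circles are the samples without 4OHT, squares those with it, and short lines the means of 2. Tnnt2 shows the widest gap, 5 and 5 against 1 and 0, and Actn2 is at 2 in every sample.

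Of 32 positions in any floxed sample, 8 were in both samples without 4OHT and in neither with it, against 12.7% of all positions. The reverse held for 0 of 32, against 2.01%. At equal list length the numbers were 3 of 23 and 8.33%. Around Tnnt2, 3 positions were of this kind. A pair of them, at chr1:135794987-135794988 and chr1:135800642-135800697, lie in Tnni1, the slow skeletal troponin I gene, and were in no other list of the series. The remaining one, at chr1:135865713-135865831, was also in uninduced and induced EB of 12 h. Around Actc1, 2 positions were of this kind, the one 4565 bp upstream and one at chr2:114067210-114067307, 14.3 kb upstream, which was also in uninduced EB. The samples without 4OHT held the former at the 71.2nd and 57.7th percentile, so it was not among their weakest summits.

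Lists of related genes were counted in the same way, beside all genes. In Flk1-positive EB against uninduced EB, 16 of 21 other sarcomere genes and 11 of 14 other calcium-handling genes had more positions lost, with medians of −2 and −4.5 per gene against −1 over all genes, of which 70.7% had more lost. The 8 genes had a median of −3, the same as the 5 pluripotency genes, all 5 with more lost. Myl7, the atrial myosin light chain, lost 5 positions and gained 0. Cacnb2, a subunit of the L-type calcium channel, lost 12 and gained 3. In the other direction, Myl2 gained 4 and lost 3, and Pln gained 1 and lost 0. Each was the only gene of its list, sarcomere and calcium-handling, with more gained. Among skeletal muscle counterparts 12 of 17 had more lost, with a median of −1, and among smooth muscle genes 6 of 10, also with −1. Of 9 cardiac transcription factor genes, 8 had more lost, with a median of −4, and Mef2c lost 8 and gained 0. Of 8 endothelial genes, 3 had more gained and 4 more lost, with a median of −1.5. The lists were not matched for gene length or number of positions.

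On induction alone, in unsorted EB, other sarcomere genes had 10 of 21 with more gained and 7 with more lost, and calcium-handling genes 3 and 9 of 14, beside the 26.5% and 43.6% of all genes. Of 9 cardiac transcription factor genes, 1 had more gained and 7 more lost, with a median of −2. Myl2, the ventricular myosin light chain, gained 5 positions and lost 1, and Camk2d, a calcium-dependent kinase, gained 1 and lost 6. Endothelial genes, the lineage of Etv2, had 6 of 8 with more gained and 2 with more lost. Kdr gained 6 and lost 0, while Flt1 gained 2 and lost 4 and Cdh5 gained 3 and lost 4. The median per gene was 2 for endothelial genes, −1 for the 8 heart muscle genes and 0 over all genes. In Flk1-positive against unsorted induced EB, 0 of 8 endothelial genes had more gained and 6 more lost, with a median of −4 against −1 over all genes. In MEF at days 2 and 7, all 8 endothelial genes had more lost, as did 88.3% and 91.5% of all genes. In the floxed samples, groups did not overlap and were lower with 4OHT for 4 of the 8 heart muscle genes. Over all genes the share was the same 29.3%. The counts were 7 of 21 other sarcomere, 3 of 14 calcium-handling, 8 of 15 skeletal muscle and 2 of 10 smooth muscle genes. They were 6 of 9 cardiac transcription factor, 5 of 8 endothelial, 3 of 5 pluripotency and 3 of 6 fibroblast genes.

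At the start, none of 15 other sarcomere genes and none of 10 calcium-handling genes with a mapped start had the pattern of Actn2 and Ryr2. It was found in 2 of 5 cardiac transcription factor genes, Tbx20 and Isl1, and in 3 of 5 pluripotency genes, Pou5f1, Sox2 and Zfp42. Of 15 skeletal muscle counterparts, 12 had the start in no list, like 6 of the 8 heart muscle genes.

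Genes with the most similar profile to the summed positions of the 8 genes, per 10000 summits over 19 lists, were Rbpms and Elf3 (Pearson r = 0.95 each), Lhx3 (0.94), and Slc9a7 and Prdm6 (0.93 each). These came from 18231 genes outside the windows whose counts, summed over the 19 lists, came to at least 20. Their median r was 0.33, and 72.2% of them had r above 0. The lists fall into fibroblast and EB groups and share processing runs, so r is a description and carries no p.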

How the data were processed

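ATAC-seq libraries of 34 mouse samples were aligned to mm10 with Bowtie2 2.2.4 and peaks were called with MACS2, per the submitters' processing notes, which also name HOMER. The files used here hold summits with the authors' deposited score, the −log10 of the q value, with a lowest value of 1.30 (q of 0.05). Trimming, duplicate handling, the shift for transposase cutting and how the 2 replicates of 15 groups were combined are not given in the sources used here. Read depth was not analysed here, and list length is the only stand-in for it. Peak names divide the lists into 3 processing runs (knockdown; MEF and EB of 12 h; floxed).

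Summits on chromosomes 1 to 19 and X were joined within 250 bp over all 19 lists. Gene intervals came from RefSeq (GRCm38.p6), starts from its promoter table of 17273 genes, and exons were not used. A position was at a start when a summit lay within 1 kb of it. Floxed samples were compared with a two-sided exact permutation test. Nothing in the labels ties replicates to separate cultures, so a p-value measures only the spread between samples. Replicate numbers are in the labels, but the deviations of same-numbered floxed samples correlated at −0.10 over 19469 genes, with 2 pairs. Named positions were those at a start, in most lists, or gained or lost between EB lists, and positions of the other comparisons were named after their values were seen. Alternatives were joining within 100 bp, a window of 10 kb, a score of at least 10, equal list length, leaving out a sample and a replicate block. The counting was tested on simulated data. Members and gene lists were chosen with earlier results of these data known. Python 3.11.15 was used with scipy 1.17.1 for the tests, pandas 2.3.3 and numpy 2.4.6 for the counts, and matplotlib 3.10.9 for plots.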

Additional observations from a re-analysis of the deposited data

Results flagged for a closer look

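Around Myh6, positions gained minus lost came to 4 in EB at 12 h and to −6 in MEF at day 1, and around Myh7 to 3 and −4, so the same induction went with opposite signs in the cell types. Each value rests on 1 list per group and the difference was not tested. Over all genes, 26.5% had more gained in EB and 62.3% more lost in MEF at day 1, and the share with both was not counted. The 4 positions gained in EB are the same for both genes and stood at the 3.95th to 21.4th percentile of their list. The times differ, and the windows of these genes share 12 positions, so they count in part as the same observation.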

How the results depend on the processing

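Values here are positions of the 8 genes gained minus lost. With every pair of lists cut to equal length, the sign reversed in Flk1-positive MEF (2, from −17) and in knockdown MEF of day 1 (2, from −5). The other values at equal length were −1 in induced EB (from −6), −9 and −2 in Flk1-positive EB against uninduced and unsorted EB (from −24 and −18), −4, −4 and −2 in MEF of days 1, 2 and 7 (from −12, −23 and −28), and 3 in knockdown MEF of day 2 (from 0). Fewer summits enter these values, so they are smaller in part by construction. With a window of 10 kb they were −1 in induced EB, −15 in Flk1-positive against uninduced EB, −7, −13, −15 and −9 in MEF of days 1, 2, 7 and Flk1-positive, and 0 in knockdown MEF of day 7. With scores of at least 10 they were −11 in Flk1-positive against unsorted EB, −3, −10, −13 and −7 in those MEF lists, and −3 and 0 in knockdown MEF of days 1 and 7. Joining within 100 bp gave −3 in induced EB and −1 in knockdown MEF of day 2. The cause was not tested. Of 40 alternative values for these 10 comparisons, 15 kept their direction within 1.5 times, 23 moved further and 2 reversed.

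In floxed EB the difference was −12 positions. It was −14 to −10 with a sample left out, −3.5 with the 10 kb window, −4 with scores of at least 10, −4.5 at equal length and −2.13 per 10000 summits. With the replicate numbers as a block, or with crossed numbers, the difference stayed at −12, and the smallest possible p of the exact permutation within pairs is 0.5. No threshold could be passed in this design, so the test says nothing of stability. The limit on every count is that read depth is unknown and a site under the calling threshold is absent from a list without being closed.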
